A study of Rattus norvegicus with 3 samples.

Results

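The endocardial nuclei of the rat heart apex were picked out of single-nucleus RNA libraries by their transcripts, and they numbered 383 of 24664 nuclei. The endocardium is the sheet of endothelial cells that lines the chambers and the valves and meets the blood directly. It is known as a source of neuregulin 1, a growth factor that acts on ErbB receptors of the neighbouring cardiomyocytes, and of signals that shape trabeculae and valves during development. Its cells share Vwf and Cdh5 with vessel endothelium, but they carry their own set of transcription factors and the clearance receptor for natriuretic peptides, Npr3.

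The study compared wild-type (WT) rats with 2 dystrophin-mutant genotypes at 12 months of age. BMD rats, a Sprague Dawley model of Becker muscular dystrophy, carry an in-frame deletion in the dystrophin gene Dmd that leaves a shortened protein, and DMD rats, a model of Duchenne muscular dystrophy, carry a deletion of a Dmd exon that abolishes it. The alleles are constitutive, so every cell of the heart carried them. Each genotype was measured in 1 library of sorted nuclei from the apex, which held parts of both ventricles and of the septum, so there was no replicate and no test between genotypes was possible. All intervals below are 95% intervals that cover counting error only, and a ratio whose interval excludes 1 (a log2 ratio whose interval excludes 0) compares these libraries and not the genotypes.

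A nucleus was counted as endocardial when it held at least 4 unique molecular identifiers (UMIs, 1 per captured transcript) of Nrg1, Cgnl1, Pkhd1l1 and Smoc1 together and at least 3 UMIs of 7 general endothelial genes together (Flt1, Vwf, Cyyr1, Cdh5, Emcn, Ptprb and Egfl7). It also had to hold at most 1 UMI of the fibroblast genes Dcn, Pdgfra and Bicc1, under 0.4% of its UMIs in 4 cardiomyocyte genes, and at most 2 UMIs of 3 lymphatic genes. The rule gave 101 WT, 137 BMD and 145 DMD nuclei. In the order WT, BMD, DMD they held 107837, 198631 and 207976 UMIs, out of 21609238, 21142346 and 19215994 UMIs in the whole libraries. The median member had 909 UMIs from 697 genes (WT), 1263 from 882 (BMD) and 1215 from 892 (DMD), so that the WT members were the shallowest. No barcode was endocardial in 2 libraries, though 1 endocardial barcode also occurred among the nuclei of another library (BMD and WT).

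Endocardial nuclei were least frequent in the WT library, at 1.01% of its nuclei (exact binomial interval 0.826 to 1.23). BMD held 2.01% (1.69 to 2.37) and DMD held 1.84% (1.55 to 2.16). The share was thus 1.98 times the WT share in BMD (interval 1.52 to 2.59) and 1.81 times in DMD (1.397 to 2.36), while DMD and BMD did not differ beyond counting error (0.914 times, 0.718 to 1.16). The other vascular endothelial nuclei, defined by the same limits but with at most 1 UMI of the 4 endocardial genes, numbered 1367, 1232 and 1506. Their share was also higher over WT, by 1.32 times in BMD (1.22 to 1.43) and 1.39 times in DMD (1.29 to 1.498). Lymphatic nuclei, with at least 3 UMIs of the lymphatic genes, had 2.80 times the WT share in BMD (2.24 to 3.502) and 2.07 times in DMD (1.65 to 2.61), so a higher share was not particular to the endocardial nuclei. As a share of both endothelial classes, the endocardial nuclei were 6.88% (WT), 10.01% (BMD) and 8.78% (DMD), and on that denominator the DMD over WT fold was 1.28 with an interval (0.983 to 1.66) that held 1. With 1 library per genotype, the dissection and the genotype cannot be told apart. Among nuclei with at least 1000 UMIs the folds were larger, at 3.12 in BMD and 3.28 in DMD. With the shallower nuclei likewise left out and the rest thinned to 1000 UMIs, they were 2.90 (1.91 to 4.47) and 3.38 (2.26 to 5.18). The plot of the share by library and setting shows that no setting put either mutant below WT.

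**Figure D1:**
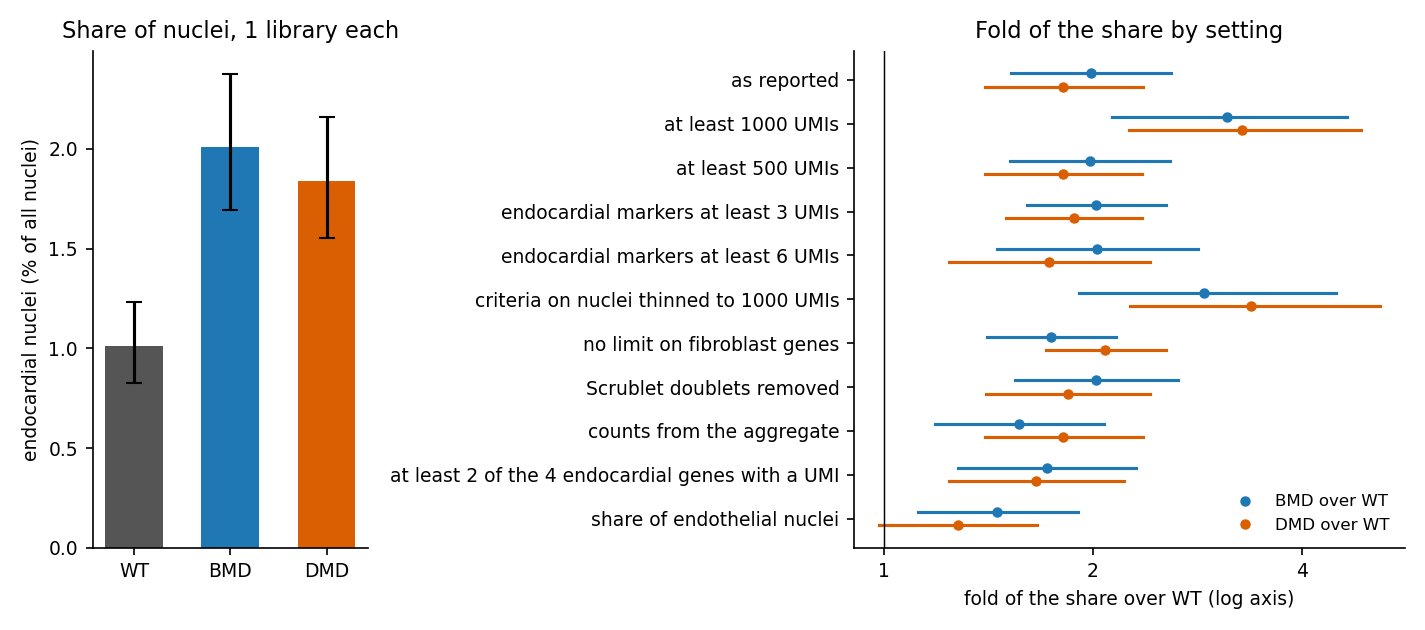
Left, endocardial nuclei as a percentage of all nuclei in the single WT, BMD and DMD library (bars) with exact 95% binomial intervals (1.01%, 2.01% and 1.84%). Right, fold of that share over WT on a log axis for BMD and DMD under each setting tried, with 95% counting intervals; all points lie above 1, and only the DMD interval for the share of endothelial nuclei reaches below 1.

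The label was checked against Npr3, an endocardial marker that the rule did not use. Npr3 stood at 807 (WT), 473 (BMD) and 509.7 (DMD) CPM (UMIs scaled to a total of 1000000 for the class), against 14.6, 18.9 and 20.7 in the other vascular endothelial nuclei. After each nucleus was thinned to 500 UMIs, a Npr3 UMI was found in 27.7% (WT), 16.8% (BMD) and 19.3% (DMD) of endocardial nuclei, and in 0.805%, 1.14% and 0.863% of the other vascular endothelial nuclei. The intervals of the endocardial shares (lowest bound 10.9%) did not reach those of the other nuclei (highest bound 1.90%), so as a class the members carried the marker.

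The members were not uniform in this respect. Most held UMIs of 2 or more of the 4 endocardial genes (87 WT, 102 BMD and 114 DMD nuclei), but 14, 35 and 31 nuclei rested on 1 gene, and in 12, 32 and 27 of these that gene was Pkhd1l1, which encodes a fibrocystin-like membrane protein. In the nuclei that rested on 1 gene, Npr3 was 367 (WT), 18.8 (BMD) and 96.5 (DMD) CPM, from 5, 1 and 5 UMIs, whereas in those with 2 or more genes it was 870.3 (WT), 639.6 (BMD) and 647 (DMD). Cdh11 behaved in the same manner, with 1836 (WT), 169 (BMD) and 695 (DMD) CPM against 4903 (WT), 5145 (BMD) and 2759.9 (DMD). In BMD the nuclei with 1 gene thus carried Npr3 and Cdh11 at about the level of other vascular endothelium, and for most of them the name endocardial rests on Pkhd1l1 alone. Other endocardial genes were above that level in these BMD nuclei, with Hmcn1 at 2836 against 1278 CPM, Meis2 at 301 against 114 and Gata4 at 150 against 45.3. These values rested on 151, 16 and 8 UMIs, and the WT nuclei with 1 gene had no Gata4 UMI. In lymphatic nuclei the mean CPM over the libraries was 924 for Meis2, 677 for Hmcn1, 52.7 for Gata4 and 1642 for Pkhd1l1. Whether the nuclei with 1 gene are endocardial was not tested. With only the nuclei of 2 or more genes, the shares were 0.873%, 1.498% and 1.45%, and the folds over WT were 1.72 (1.28 to 2.31) in BMD and 1.66 (1.24 to 2.21) in DMD.

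Close to the threshold, 31, 45 and 51 nuclei with 3 endocardial UMIs stayed outside and 21, 28 and 33 nuclei with 4 were inside. Npr3 was 117, 14.0 and 99.9 CPM in the former and 245, 53.7 and 19.8 CPM in the latter. The median member held 7 endocardial marker UMIs in each library, and the highest held 33, 86 and 123. Because a deeper nucleus passes a minimum of UMIs more easily, and the BMD and DMD members were deeper than those of WT, leading results below are also given with the rule applied to nuclei thinned to 1000 UMIs, without the shallower nuclei (6170 WT, 4971 BMD and 5015 DMD nuclei stayed). That left on average 33.7 (WT), 78.6 (BMD) and 92.7 (DMD) members over 20 random draws, with 28 to 39, 72 to 85 and 82 to 100 in single draws, and shares of 0.546%, 1.58% and 1.85%. Ratios for it are the mean over these draws with the lowest and highest draw in parentheses.

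Of the 4 genes that chose the members, Pkhd1l1 stood at 3459 (WT), 3353 (BMD) and 3063 (DMD) CPM and Cgnl1, which encodes the junction protein paracingulin, at 3579.5 (WT), 2824 (BMD) and 2476 (DMD). Smoc1, a secreted matricellular calcium-binding protein, was the least abundant with 204 (WT), 156 (BMD) and 197 (DMD). Nrg1 stood at 1558 (WT), 2149.7 (BMD) and 3496 (DMD) CPM, and this order has no independent weight since Nrg1 is part of the rule. Nrg1 was carried by few nuclei: any Nrg1 UMI was found in 23 of 101 (WT), 36 of 137 (BMD) and 56 of 145 (DMD) members, and the richest nucleus held 21, 69 and 104 of the 168, 427 and 727 UMIs. Among the general endothelial genes of the rule, Vwf was 2745 (WT), 1742 (BMD) and 3149 (DMD) CPM and Flt1, a VEGF receptor, 1141 (WT), 1339 (BMD) and 1289 (DMD).

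The next description sets the endocardial nuclei against other vascular endothelium within each library. The rule separated the classes on the same nuclei, so these differences describe the members and are not tested. Of 7041 genes with at least 100 UMIs over both classes and outside the rule, 154 (2.19%) were at least 2 times higher in endocardial nuclei in each of the 3 libraries and 148 (2.1%) at least 2 times lower. The plot of the genes furthest apart shows the 12 highest and the 8 lowest, ranked by the smallest interval end over the libraries. Npr3 aside, Cdh11, a mesenchymal type cadherin, came first in this ranking, at 4516 (WT), 3811 (BMD) and 2246 (DMD) CPM against 136, 148 and 125. Sorcs1 and Zmat4, given below, had larger ratios in every library but at lower levels. Meis2, a homeodomain transcription factor, stood at 2086 (WT), 1782 (BMD) and 971 (DMD) against 135, 114 and 140.1. Cdh11 and Meis2 were both high in WT and BMD and lower in DMD. Not all of these genes set the endocardial nuclei apart from lymphatic nuclei, in which the mean CPM over the libraries was 924 for Meis2, 670.2 for Slc9a9, 259 for Klhl29 and 1642 for Pkhd1l1 of the rule, against 38.7 for Npr3 and 184 for Cdh11.

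Several of the leading genes encode signalling and membrane proteins. Rps6ka2, a ribosomal S6 kinase of the ERK pathway, was 2169.9 (WT), 1561 (BMD) and 1995 (DMD) CPM against 252, 220.4 and 254, and Slc9a9, an endosomal sodium-proton exchanger, was 1149.9 (WT), 826 (BMD) and 1164 (DMD) against 128, 128 and 124. Adgrg6, an adhesion G protein-coupled receptor, was 343 (WT), 242 (BMD) and 356 (DMD) against 22.6, 23.7 and 35.8. The neuronal type membrane proteins Opcml (538, 478 and 341 against 17.8, 23 and 23.9) and Sorcs1 (176, 196 and 264 against 2.43, 4.73 and 13.2) belonged to the same group. Dtnb, which encodes beta-dystrobrevin, a partner of dystrophin, stood at 371 (WT), 247 (BMD) and 303 (DMD) against 30.7, 20.3 and 28.9. Klhl29 (408, 403 and 466 against 30.7, 20.3 and 57.8) and Zmat4 (278, 50.3 and 361 against 5.66, 0.676 and 1.26) completed the list together with Reg3g, a secreted lectin. Reg3g rested on few nuclei: its 55 UMIs in DMD came from 5 nuclei, of which 1 held 37.

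The lowest genes included a growth factor receptor gene and a chemokine gene. Kdr, the main VEGF receptor, was 55.6 (WT), 80.6 (BMD) and 57.7 (DMD) CPM against 298, 321 and 348, and Cxcl12, a chemokine, was 55.6 (WT), 45.3 (BMD) and 38.5 (DMD) against 286, 269.8 and 276. Prom1 (18.5, 20.1 and 28.8 against 222, 172 and 176), the cytoskeletal genes Ablim3 (158, 141 and 144 against 909, 895 and 764) and Myo10 (139, 106 and 52.9 against 724, 678 and 569) and Ccdc85a (575, 760.2 and 490.4 against 2216, 2284 and 2365) showed the same direction in every library. Nox4, an NADPH oxidase, had 0, 2 and 3 UMIs in endocardial nuclei, where a count of 0 in WT allows up to 27.8 CPM (3 UMIs), against 105, 182 and 107 CPM in other vascular endothelium. Akr1c15 stood at 259.6 (WT), 307 (BMD) and 313 (DMD) against 1184, 866 and 894.

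**Figure D2:**
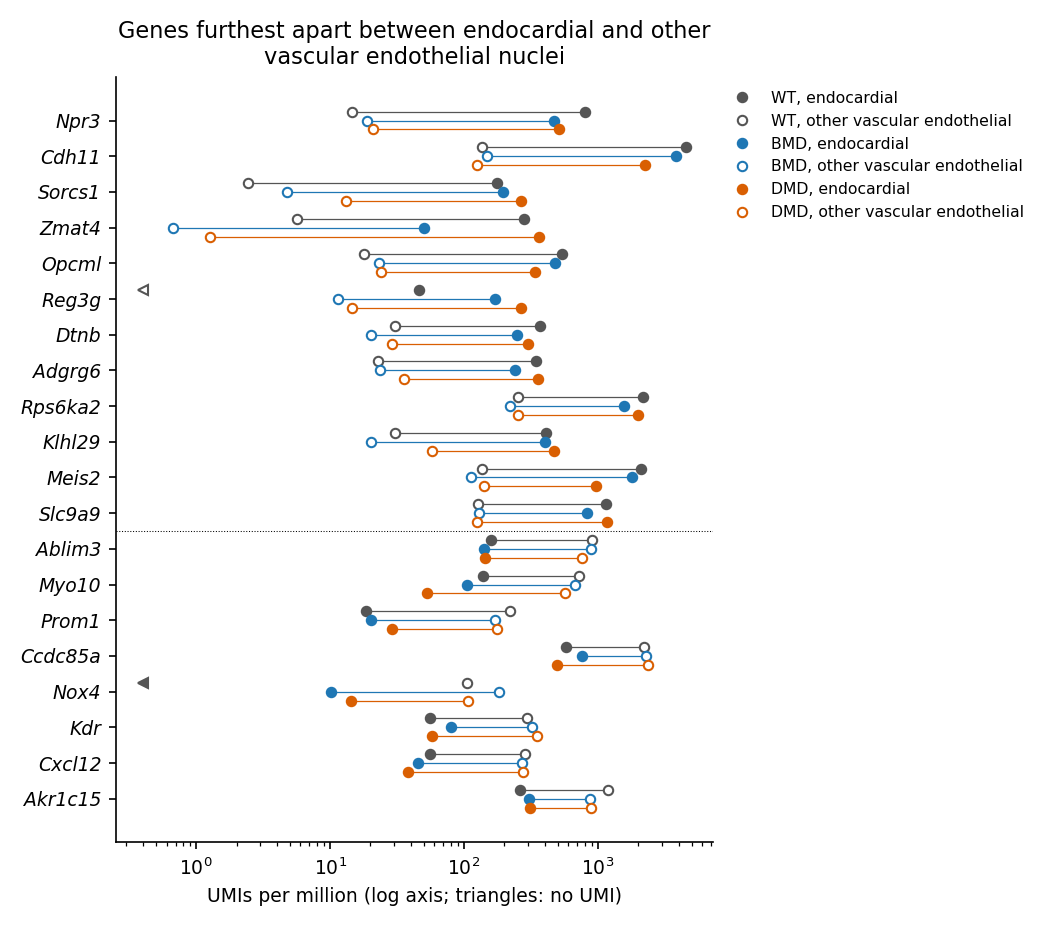
CPM (log axis) of the 12 genes furthest above and, under the dotted line, the 8 furthest below other vascular endothelial nuclei, in endocardial (filled) and other vascular endothelial nuclei (open) of each library; triangles mark a class without a UMI. Npr3 lies at 807, 473 and 510 in endocardial against 14.6, 18.9 and 20.7 in other nuclei.

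Gene groups drawn up for the endocardium and its pathways were compared in the same nuclei. The lists were chosen with earlier results of these data known, and the endocardial list holds Cdh11, already named above. Their counts therefore describe the members and give no independent support for the contrast. Of 11 endocardial genes outside the rule that could be compared, 7 were at least 2 times higher in each library and none lower. These included Hmcn1, the basement membrane protein hemicentin, at 5489.8 (WT), 4259 (BMD) and 4515 (DMD) CPM against 1508, 1278 and 1269, and Gata4, a cardiac transcription factor, at 380.2 (WT), 368 (BMD) and 279 (DMD) against 22.6, 45.3 and 40.8, and the summed level of the list was 13483, 11166 and 9996 CPM against 3252, 2912 and 2978. Capillary genes went the other way, with 8 of 12 lower in each library, among them the fatty acid carrier Fabp4 at 399 (WT), 448 (BMD) and 644 (DMD) against 1526, 1148 and 1888 and the transcription factor Meox2 at 241 (WT), 483 (BMD) and 447 (DMD) against 1136, 1064 and 966. Of 12 arterial genes 4 were lower and none higher, of 8 venous genes 1 was lower, and of 17 general endothelial genes 3 were lower and none higher. Fli1, an endothelial transcription factor, stood at 1716 (WT), 1279 (BMD) and 1620.4 (DMD) against 1712, 1537 and 1697.

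Within the TGF-beta and BMP pathway, 3 of 28 genes were higher in each library and 1 lower. Bmp6, a ligand, was 890.2 (WT), 1163 (BMD) and 1414 (DMD) CPM against 137, 115 and 172, the latency protein gene Ltbp1 was 2513 (WT), 1465 (BMD) and 2000.2 (DMD) against 438, 385 and 278, and the inhibitor Smad6 was 686 (WT), 544 (BMD) and 462 (DMD) against 180.3, 207 and 211. The summed level of that pathway was 10442, 8775 and 10670 CPM against 6002, 5959 and 6484. In the natriuretic peptide list, 2 of 7 genes, Npr3 and Corin, were higher and none lower. Corin, the protease that activates atrial natriuretic peptide, stood at 631 (WT), 453 (BMD) and 509.7 (DMD) against 57.4, 71.7 and 91.7, but its free RNA level, measured in barcodes with at most 50 UMIs, was 732 (WT), 612 (BMD) and 393 (DMD).

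Genes used in endothelial to mesenchymal transition were higher in 3 of 10 cases and lower in none, with Fn1, fibronectin, at 278 (WT), 342 (BMD) and 668 (DMD) CPM against 59.8, 70.3 and 108. Of 23 basement membrane and matrix genes 4 were higher and 2 lower, and of 20 flow and stretch sensing genes 2 were higher and none lower. Heg1, a receptor of endocardial and endothelial junctions, was 2133 (WT), 1737 (BMD) and 1269 (DMD) against 962, 1095 and 1051. In the dystrophin complex, 2 of 11 genes were higher, and these were Dtnb and the sarcoglycan Sgcd, at 529 (WT), 514 (BMD) and 438 (DMD) against 72.8, 77.1 and 75.4.

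In the VEGF and angiopoietin list 2 of 11 genes were lower and none higher, and in the fatty acid and solute transport list 2 of 11 were lower and 1 higher. The Notch list had 3 of 15 lower and none higher, the haemostasis and adhesion list 2 of 14 higher and 2 lower, and the interferon and antigen presentation list 2 of 14 lower and none higher. No gene of the neuregulin and ErbB list outside the rule (3 compared), the heat shock list (9) or the immediate early list (7) passed 2-fold in every library. Cell division genes were too few to compare gene by gene, and their sum was 232, 131 and 96.2 CPM in endocardial against 60.7, 124 and 45.9 in other vascular endothelial nuclei, from 25, 26 and 20 UMIs.

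**Figure D3:**
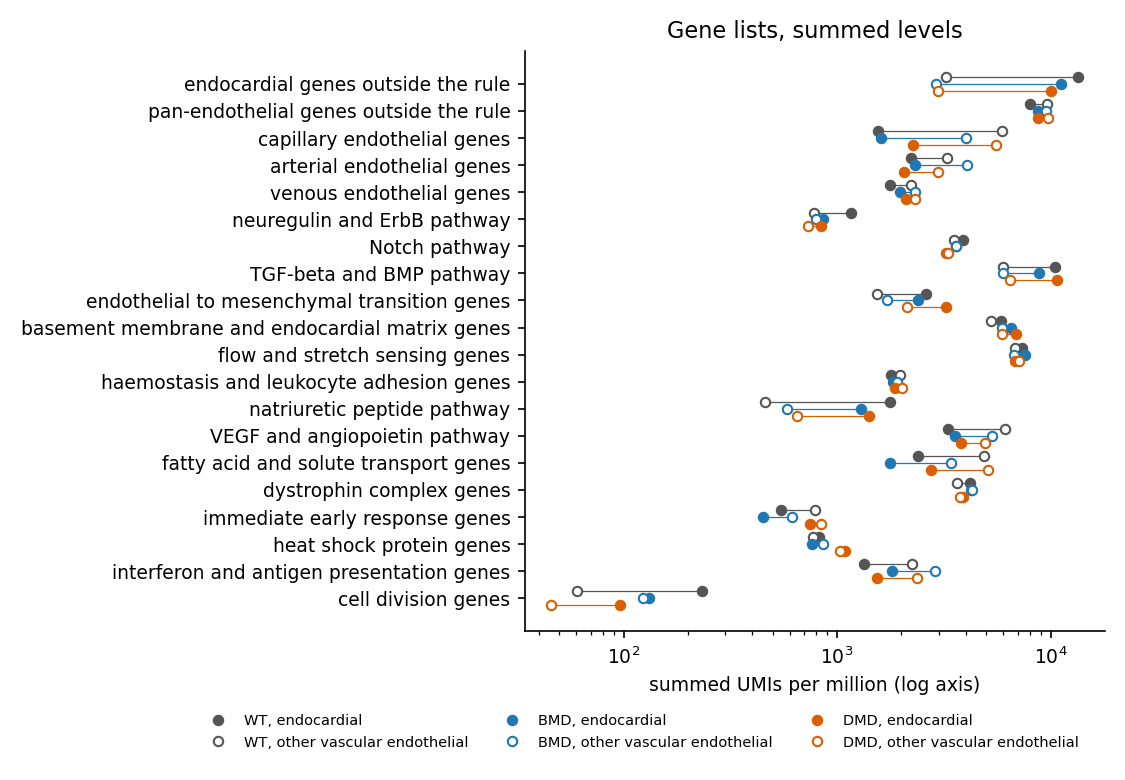
Summed CPM (log axis) of each gene list, without the genes of the rule, in endocardial (filled) and other vascular endothelial nuclei (open) of the WT, BMD and DMD library. The endocardial list lies at 13483, 11166 and 9996 in endocardial nuclei, and the capillary list lies lower in endocardial than in other nuclei in every library.

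The markers of other cell types were measured in the same nuclei. Cardiomyocyte genes outside the rule summed to 1734, 2049 and 1548 CPM, with Ryr2 the most abundant, against 19909, 28891 and 19779 in free RNA, so that free RNA could account for at most 8.71%, 7.09% and 7.83% of the endocardial UMIs if all cardiomyocyte transcripts came from it. Fibroblast markers summed to 5768, 4883 and 3943 CPM, but Cdh11, itself a leading endocardial gene, made up most of this. Without Cdh11 the sum was 1252 (WT), 1072 (BMD) and 1697 (DMD), highest in DMD, as it was in free RNA with Cdh11 included, at 7748 (WT), 4290.5 (BMD) and 9934 (DMD). Of the 4 fibroblast genes with at least 100 UMIs, 3 were above WT in DMD, as were 573 of all 1202 genes with that many UMIs. The defining fibroblast gene Dcn stood at 92.7 (WT), 50.3 (BMD) and 125 (DMD), by the rule. Lymphatic markers outside the rule summed to 362, 599 and 591 CPM (Sema3d the most abundant), pericyte markers to 603, 433 and 370.2 (Abcc9) and smooth muscle markers to 83.5, 186 and 144 (Mylk). Macrophage markers summed to 501, 211 and 481 (Rbpj), T or B cell markers to 408, 272 and 269 (Ptprc), and monocyte or neutrophil markers to 83.5, 55.4 and 202 (S100a9). Mesothelial (158, 181 and 212, Wt1) and adipocyte markers (259.6, 262 and 259.6, Lipe) had 5 of 8 and 6 of 8 genes without a UMI, which were Krt19, Krt8, Krt18, Lrrn4 and Rspo1 and Adipoq, Plin1, Plin4, Cidec, Lep and Retn. Ms4a1, Cd79a and Cd79b of the 12 T or B cell markers, Csf3r of the 6 monocyte or neutrophil markers, Cnn1 of the 8 smooth muscle markers and Stab2 of the 8 lymphatic markers were also at 0 UMIs. In the other marker lists given here no gene was at 0, and the part of such nuclei or of free RNA in the genotype ratios below was not tested.

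GATA factors bind short motifs, and Gata4 was among the genes above, so the promoters of the leading genes were read for them. Windows from 250 bases before to 50 bases after the gene start (RefSeq, assembly GRCr8) were at hand for 10 of the 16 genes formed by the markers and the 12 highest genes. The letters GATA with A or T before and A or G after them, read on both strands, occurred in 2 of these 10 windows, against 30.3% of all 33469 windows. Those of Npr3 (chr2:62658891-62658920, minus strand) and Slc9a9 (chr8:104112301-104112330, plus strand) are shown 5′ to 3′ along the gene, with the motif in capitals as its reverse complement, 143 and 222 bases before the start. The match is a description of the sequence and was not shown to be a binding site.
Npr3: gagtcttcctctCTATCTtttggcgcgtta
Slc9a9: tgaactgtcttaTTATCAatgtacaatttg

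Within the members, Nrg1 divided the nuclei. The division was chosen after the values had been seen. Nuclei with at least 2 Nrg1 UMIs numbered 19 (WT), 30 (BMD) and 38 (DMD), which is 18.8% (11.7 to 27.8), 21.9% (15.3 to 29.8) and 26.2% (19.3 to 34.2) of the members, and 78, 101 and 89 nuclei held none. The intervals of the 3 shares overlapped. Both groups carried the endocardial genes above other vascular endothelium, with Hmcn1 at 5230, 3828 and 6003 CPM in the Nrg1 group and 5582, 4545 and 3822 CPM in nuclei without Nrg1.

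Of 1202 genes with at least 100 UMIs in the members, 23 were at least 2 times higher with Nrg1 in each library and 32 at least 2 times lower. Smoc1, also part of the rule, was 628 against 44.6 CPM over the 3 libraries. Of the genes higher with Nrg1 and outside the rule, Bmp6 ranked first, at 3281 against 372 in WT, 4663 against 273 in BMD and 2974 against 629 in DMD. Ccn2, a matricellular protein, stood at 697 against 111 CPM over the libraries, Dtnb at 767 against 139, and the basement membrane collagen gene Col4a5 at 575 against 106. Corin was 974 against 528 in WT, 1006 against 313 in BMD and 1505 against 148 in DMD, under 2-fold in WT. Npr3 was 1179 against 720.2 in WT, 1349.7 against 232 in BMD and 991 against 279.7 in DMD. The matrix proteoglycan Vcan was 154 against 192 in WT, 417 against 123 in BMD and 808 against 62.1 in DMD. The WT value of Vcan with Nrg1 rested on 3 UMIs (log2 ratio -0.32, interval -2.74 to 1.48), so its direction in WT was not resolved at this depth.

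Nuclei without Nrg1 were higher in Igfbp5, an insulin-like growth factor binding protein, at 51.3 against 780.2 in WT, 123 against 552 in BMD and 91.8 against 2393 in DMD (Nrg1 nuclei first). Igf2 was 17.4 against 332 CPM over the libraries, Sulf1, a heparan sulfate sulfatase, 87.2 against 842, and Dach1, an endothelial transcription factor, 227 against 1276. Mitochondrial transcripts made up 0.723% of UMIs in the Nrg1 group and 2.06% in nuclei without it. All nuclei that rested on Pkhd1l1 alone were by definition in the group without Nrg1, and Dach1 and Ccdc85a (139 against 805) were also abundant in other vascular endothelium. Igfbp5 was abundant in lymphatic nuclei, at a mean of 1889.7 CPM over the libraries against 277 in other vascular endothelium. The part of nuclei of these kinds in the contrast was not tested.

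**Figure D4:**
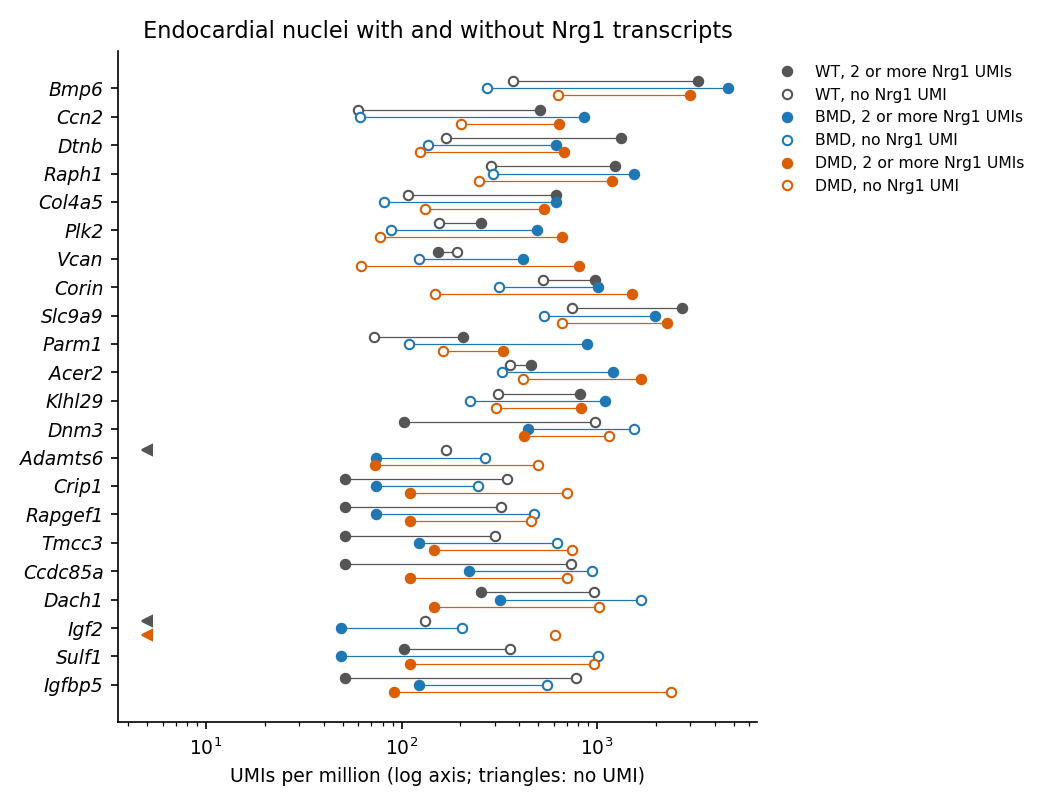
CPM (log axis) in endocardial nuclei with at least 2 Nrg1 UMIs (filled) and with none (open) in each library, for the 12 genes furthest above and the 10 furthest below in the Nrg1 group, ranked over the 3 libraries together. Bmp6 lies higher with Nrg1 in every library and Igfbp5 lower in every library; triangles mark a group without a UMI.

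The genotypes were then compared within the endocardial nuclei. The BMD and DMD ratios share the WT library, so a feature of that library enters both. Of the 1202 genes, 34 (2.83%) were at least 2 times higher in BMD than in WT and 14 (1.16%) at least 2 times lower. For DMD over WT the corresponding counts were 31 (2.58%) and 13 (1.08%). DMD exceeded BMD by at least 2 times in 26 genes (2.16%) and was lower in 9 (0.749%). The median log2 ratio of all these genes was 0.07 for BMD over WT, -0.02 for DMD over WT and -0.08 for DMD over BMD.

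Dmd, the gene altered in the mutants, was 742 (WT), 916 (BMD) and 736 (DMD) CPM in endocardial nuclei, with log2 ratios of 0.30 (95% interval -0.08 to 0.70) in BMD and -0.01 (95% interval -0.41 to 0.40) in DMD. A Dmd UMI was found in 27.7%, 34.3% and 32.4% of endocardial nuclei thinned to 500 UMIs, and in 32.8%, 45.5% and 36.2% of other vascular endothelial nuclei. Free RNA held it at 8796 (WT), 7133 (BMD) and 3884 (DMD). With free RNA subtracted no Dmd UMI was left in the WT members, so no ratio is given for that setting. Reads of a 3′ or 5′ end also say nothing of an internal deletion, so the level is no check of the genotype labels. Its paralog Utrn, utrophin, stood at 1604 (WT), 1727 (BMD) and 1616 (DMD) CPM (0.11 and 0.01), with 857 (WT), 797 (BMD) and 724 (DMD) in free RNA. The 5 measured dystrophin complex genes had medians of 0.11 and -0.01, and none passed 2-fold.

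The genes furthest above WT in both mutants included Col8a1, Plcb1, Sulf1, Xdh, Nav2 and Hdac9. Col8a1, a collagen of vascular and endocardial matrix, was 195 (WT), 629 (BMD) and 587 (DMD) CPM, from 21, 125 and 122 UMIs in 16, 40 and 35 nuclei. Its log2 ratio over WT was 1.69 (95% interval 1.02 to 2.43) in BMD and 1.59 (95% interval 0.91 to 2.33) in DMD, against 0.19 and -0.52 in other vascular endothelium. A single nucleus held 23 of the BMD and another 26 of the DMD UMIs. In the nuclei with 2 or more endocardial genes the ratios were 1.73 and 1.79, and in members chosen on thinned nuclei they were 2.61 (2.12 to 3.35) and 2.85 (2.25 to 3.64). With a minimum of 3 marker UMIs they were 1.04 and 0.72, the latter under 2-fold.

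Plcb1, a phospholipase C of G protein signalling, was 195 (WT), 679.6 (BMD) and 587 (DMD) CPM, with log2 ratios of 1.80 (95% interval 1.13 to 2.54) and 1.59 (95% interval 0.91 to 2.33). Sulf1 was 306 (WT), 816 (BMD) and 659 (DMD) (1.41 and 1.11), Xdh, xanthine dehydrogenase, 102 (WT), 287 (BMD) and 284 (DMD) (1.49 and 1.48), and Nav2, a cytoskeletal regulator, 64.9 (WT), 206 (BMD) and 259.6 (DMD) (1.67 and 2.0). In WT, Xdh rested on 11 UMIs. Nav2 had 4 UMIs in the WT nuclei with at least 2 Nrg1 UMIs and 3 in those with none. As 3 UMIs are 27.8 CPM in WT, the ratios of Xdh and Nav2 over WT are imprecise. In other vascular endothelium the BMD and DMD ratios were 0.86 and 0.22 for Plcb1 and 0.73 and 0.28 for Sulf1. There Xdh gave 0.32 and -0.26, and Nav2 gave 1.01 and -0.01. On thinned nuclei Plcb1 gave 1.75 (1.25 to 2.25) and 1.42 (0.65 to 1.96), Xdh 1.33 (0.50 to 1.94) and 1.55 (0.86 to 2.08), and Nav2 1.06 (-0.01 to 1.93) and 1.38 (0.90 to 2.12). Xdh with a minimum of 3 marker UMIs was 0.996 and 0.80. Sulf1 was 1.46 in BMD and 0.42 in DMD when nuclei with 2 or more endocardial genes alone were used, 0.62 (-0.19 to 1.59) and 0.04 (-0.55 to 0.92) on thinned nuclei, and 0.49 and 0.12 with a minimum of 3 marker UMIs, so its ratios depended on how the members were chosen. Hdac9, a class IIa histone deacetylase, was 436 (WT), 977 (BMD) and 1005 (DMD) (1.16 and 1.21). It was 2273 and 2085 CPM in the BMD and DMD nuclei that rested on 1 gene and 502 and 647 in the rest, and without the former its ratios were 0.56 and 0.93. On thinned nuclei they were 0.96 (-0.50 to 1.72) and 1.20 (0.22 to 2.46).

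Mctp1, a calcium-binding membrane protein with a mean of 1502 CPM in lymphatic nuclei, was 111 (WT), 327 (BMD) and 370.2 (DMD) CPM, but in only 5, 15 and 20 nuclei, and its ratios of 1.56 and 1.73 turned to -0.78 and -0.14 with nuclei of 2 or more endocardial genes. In other vascular endothelium the ratios of Mctp1 were 0.90 and 2.01. The mitochondrial gene Mt-atp6 was 1289 (WT), 2306 (BMD) and 2606 (DMD) (0.84 and 1.02). On thinned nuclei its ratios were 0.44 (-0.003 to 1.42) and 0.66 (0.25 to 1.68). Over the settings tried they ran from 0.42 to 1.46 in BMD and from 0.50 to 1.52 in DMD. Mitochondrial transcripts as a whole were 1.26%, 1.73% and 2.04% of endocardial UMIs, and their part in the Mt-atp6 difference was not tested.

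On the lower side, Sncaip, Pgm5 and Entpd1 lay furthest from WT in both mutants. Sncaip, which encodes synphilin, was 1595 (WT), 604 (BMD) and 697 (DMD) CPM, and its log2 ratio over WT was -1.40 (95% interval -1.75 to -1.06) in BMD and -1.19 (95% interval -1.52 to -0.87) in DMD. Pgm5, aciculin, a protein of adhesion junctions, was 2967 (WT), 1364 (BMD) and 1548 (DMD), with -1.12 (95% interval -1.36 to -0.88) and -0.94 (95% interval -1.17 to -0.71). Entpd1, the ectonucleotidase CD39 that removes extracellular ATP, was 890.2 (WT), 448 (BMD) and 394 (DMD), with -0.99 (95% interval -1.42 to -0.56) and -1.18 (95% interval -1.62 to -0.73). In other vascular endothelium the BMD and DMD ratios were -0.28 and -0.62 for Sncaip, -0.67 and -0.24 for Pgm5 and 0.39 and 0.15 for Entpd1. With members chosen on thinned nuclei (for gene ratios a setting added later), the BMD and DMD ratios were -0.997 (-1.52 to -0.66) and -0.76 (-1.21 to -0.49) for Sncaip, -1.02 (-1.28 to -0.69) and -0.60 (-0.82 to -0.25) for Pgm5 and -1.18 (-1.59 to -0.70) and -1.47 (-1.89 to -0.99) for Entpd1. All 3 genes were thus below WT in every draw.

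Npr3 had log2 ratios of -0.77 (95% interval -1.21 to -0.33) in BMD and -0.66 (95% interval -1.09 to -0.24) in DMD. These were -0.44 and -0.43 in nuclei with 2 or more endocardial genes and 0.01 (-0.51 to 0.45) and 0.50 (0.23 to 0.77) in members chosen on thinned nuclei. The direction of Npr3 therefore depended on how the members were chosen. Pawr had ratios of -0.91 and -0.73, and -0.06 (-0.74 to 0.46) and 0.35 (-0.09 to 0.72) on thinned nuclei. Zeb2, a transcriptional repressor, was 742 (WT), 378 (BMD) and 447 (DMD) CPM (-0.97 and -0.73), but 1 WT nucleus held 30 of its 80 UMIs, and without the nuclei called doublets the BMD ratio was 0.02. Galnt18 (-0.63 and -0.55), a glycosyltransferase, and Gmds (-0.45 and -0.40), an enzyme of GDP-fucose synthesis, lay closer to WT, and Gmds gave -0.12 (-0.42 to 0.14) and -0.10 (-0.34 to 0.13) on thinned nuclei.

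**Figure D5:**
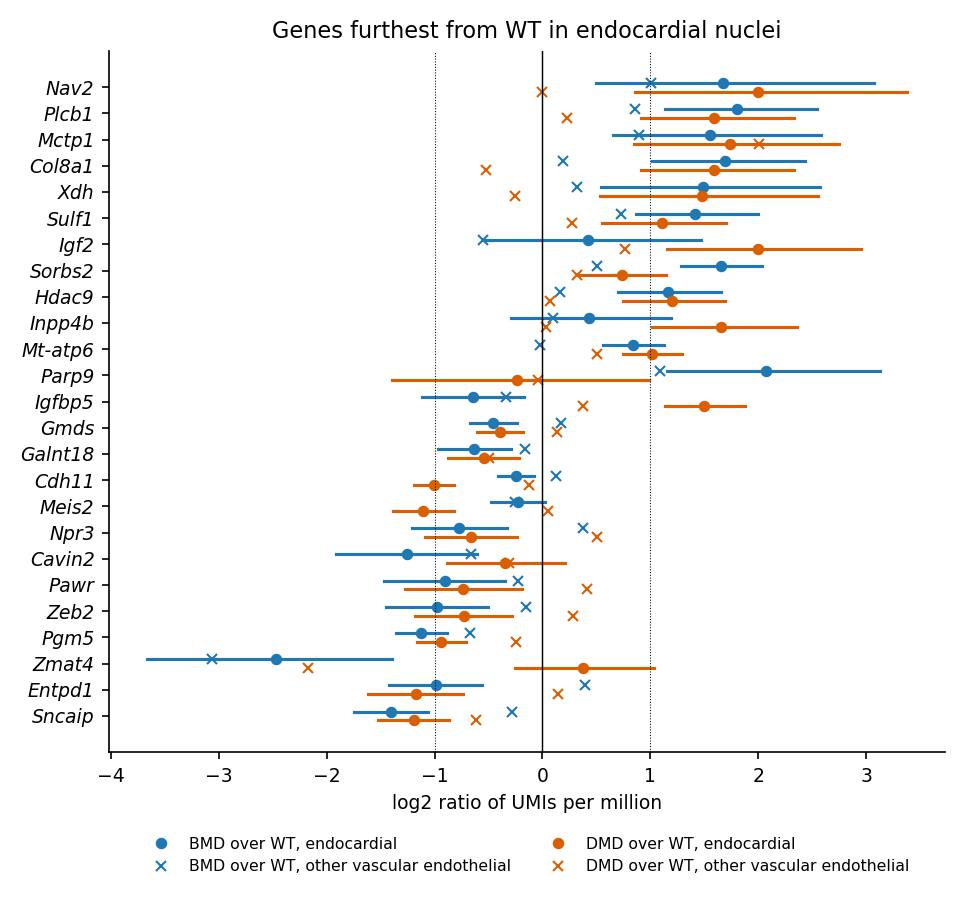
log2 ratio of CPM over WT in endocardial nuclei of BMD and DMD (dots, with 95% counting intervals) and in other vascular endothelial nuclei (crosses), for genes furthest from WT; dotted lines mark 2-fold. Col8a1 lies at 1.69 and 1.59 in endocardial nuclei, and Sncaip at -1.40 and -1.19.

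Ranked on BMD over WT, the genes furthest above WT included Parp9, an interferon-responsive gene, besides Col8a1 and Plcb1. Parp9 was 102 (WT), 428 (BMD) and 86.5 (DMD) CPM, in 8, 55 and 15 nuclei, with a log2 BMD over WT ratio of 2.07 (95% interval 1.16 to 3.12). On thinned nuclei the ratio was 1.58 (0.97 to 3.95), and other vascular endothelium gave 1.09. The interferon and antigen presentation list summed to 1335, 1802 and 1539 CPM, and B2m, a light chain of antigen presentation complexes, had a BMD over WT ratio of -0.23. Slfn4 (111, 357 and 115 CPM) had a log2 DMD over BMD ratio of -1.63, though 1 BMD nucleus held 19 of its 71 UMIs, and on thinned nuclei the ratio was 0.45 (-0.77 to 1.61).

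Sorbs2, a cytoskeletal adaptor, was 649 (WT), 2039 (BMD) and 1082 (DMD) CPM, with 1.65 (95% interval 1.28 to 2.04) in BMD and 0.74 in DMD, and it was abundant in free RNA, at 1813 (WT), 2751 (BMD) and 2073 (DMD). With free RNA subtracted the BMD and DMD ratios of Sorbs2 were 1.89 and 0.89. On thinned nuclei they were 1.84 (1.66 to 2.29) and 0.62 (0.29 to 1.02). Among the genes lowest in BMD, Cavin2, a coat protein of caveolae, was 445 (WT), 186 (BMD) and 351 (DMD), with -1.26 (95% interval -1.92 to -0.61). Zmat4 was 278 (WT), 50.3 (BMD) and 361 (DMD), with -2.47 (95% interval -3.66 to -1.39) from 30 WT and 10 BMD UMIs, and with members chosen on thinned nuclei it was 0.86 (-0.59 to 1.49).

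Ranked on DMD over WT, Igfbp5 was 677 (WT), 433 (BMD) and 1909 (DMD) CPM, with a log2 DMD over WT ratio of 1.496 (95% interval 1.13 to 1.88) and 2.14 (95% interval 1.80 to 2.49) over BMD. Its 397 DMD UMIs came from 33 of 145 nuclei and 1 nucleus held 91, while 24 and 32 nuclei carried it in WT and BMD. The carriers were thus 23.8%, 23.4% and 22.8% of the members, and 20.8% (interval 13.4 to 30.01), 11.7% (6.82 to 18.3) and 15.9% (10.3 to 22.8) after thinning to 500 UMIs. On thinned nuclei the ratio of Igfbp5 was 0.49 (-0.32 to 1.22) for DMD over WT and 0.68 (-0.22 to 1.48) for DMD over BMD. Igf2, a growth factor, was 121 (WT), 161 (BMD) and 481 (DMD) CPM (1.996 over WT), from 16 DMD nuclei of which 1 held 26 of 100 UMIs, and on thinned nuclei it was 0.81 (-1.69 to 2.09). Inpp4b, a phosphoinositide phosphatase, was spread more widely, at 213 (WT), 287 (BMD) and 673 (DMD) CPM in 16, 40 and 67 nuclei, with 1.66 (95% interval 1.02 to 2.36) over WT and 1.23 over BMD, against 0.03 and -0.06 in other vascular endothelium, and 1.15 (0.71 to 1.81) over WT and 0.67 (0.40 to 1.01) over BMD on thinned nuclei.

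The lowest genes of DMD were Cdh11, with -1.01 (95% interval -1.19 to -0.82) over WT, and Meis2, with -1.10 (95% interval -1.38 to -0.82), besides Sncaip, Pgm5 and Entpd1. In BMD their ratios were -0.24 and -0.23. A Cdh11 UMI was found in 68.3%, 62.0% and 43.4% of nuclei thinned to 500 UMIs, and a Meis2 UMI in 57.4%, 40.9% and 30.3%. The lower DMD level was most marked in nuclei without Nrg1, where Cdh11 was 4537, 3673 and 1841 CPM and Meis2 2041, 1799 and 738, whereas with Nrg1 Cdh11 was 4409, 4246 and 3157 and Meis2 2205, 1669 and 1597. The DMD nuclei that rested on 1 gene, nearly all of them without Nrg1, held Cdh11 at 695 CPM. In nuclei with 2 or more endocardial genes Cdh11 was 4903 (WT), 5145 (BMD) and 2760 (DMD) CPM. The difference between the Nrg1 groups was not tested. Members chosen on thinned nuclei gave -0.68 (-0.92 to -0.47) for Cdh11 and -0.77 (-1.14 to -0.41) for Meis2 in DMD over WT.

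Between the mutants, Txnip, an inhibitor of thioredoxin, was 510.0 (WT), 237 (BMD) and 736 (DMD) CPM, with 1.64 (95% interval 1.16 to 2.14) for DMD over BMD, and other vascular endothelium gave 1.18. Lpl, lipoprotein lipase, was 241 (WT), 101 (BMD) and 394 (DMD), with 1.97 (95% interval 1.25 to 2.75), and Tmsb4x, an actin-binding peptide, 658 (WT), 559 (BMD) and 1433 (DMD), with 1.36 (95% interval 1.04 to 1.69). Mgmt, a DNA repair enzyme, was 454 (WT), 604 (BMD) and 274 (DMD) (-1.14), in 25, 50 and 35 nuclei. Ryr2, a cardiomyocyte calcium channel, was 566 (WT), 634 (BMD) and 293 (DMD) (-1.11), and it stood at 7270.5 (WT), 5614 (BMD) and 3012 (DMD) in free RNA. With free RNA subtracted its DMD over BMD ratio was -2.02. The free RNA share was estimated from cardiomyocyte genes, of which Ryr2 was the most abundant, so this value is no separate check of Ryr2. On thinned nuclei the DMD over BMD ratios were 1.23 (0.88 to 1.76) for Txnip, 1.68 (1.24 to 2.09) for Lpl, 1.37 (0.99 to 1.88) for Tmsb4x, -1.16 (-1.61 to -0.72) for Mgmt and -1.10 (-2.11 to -0.73) for Ryr2.

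The gene lists are given beside the medians of all genes above, and a list median close to 0 can change sign with the scaling. The median log2 ratio of the 13 measured TGF-beta and BMP genes was -0.14 in BMD, with 11 of 13 below 0 (533 of all 1202 genes were), and 0.22 in DMD, and none passed 2-fold. Under edgeR's TMM scaling the BMD median was 0.00. Bmp6 was 890.2 (WT), 1163 (BMD) and 1414 (DMD) CPM, with 0.39 and 0.67 (95% interval 0.33 to 1.01), and Ltbp1 had -0.78 and -0.33. The 7 endothelial to mesenchymal transition genes had medians of 0.12 and 0.53, and 1, Fn1, was past 2-fold in DMD. Fn1 stood at 278 (WT), 342 (BMD) and 668 (DMD) CPM, with 1.26 (95% interval 0.69 to 1.89), in 28, 32 and 54 nuclei, and Vim, an intermediate filament, was 352 (WT), 357 (BMD) and 587 (DMD), with 0.74. The part of fibroblast RNA, whose markers other than Cdh11 were also highest in DMD, was not tested.

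Among 10 matrix genes Col8a1 alone passed 2-fold, with list medians of 0.01 and 0.07, and Eln, elastin, stood at 844 (WT), 1495 (BMD) and 1332 (DMD) CPM (0.83 and 0.66). Among 11 flow and stretch genes (medians 0.07 and 0.00) Ccn2 was past 2-fold in DMD, at 139 (WT), 222 (BMD) and 361 (DMD) CPM and 1.37 (95% interval 0.56 to 2.28), in 6, 21 and 34 nuclei. Heg1 was 2133 (WT), 1737 (BMD) and 1269 (DMD) (-0.30 and -0.75). The 8 endocardial genes outside the rule had medians of -0.31 and -0.14, with Cdh11 past 2-fold below in DMD, and the 12 general endothelial genes of 0.02 and 0.01. In the latter Calcrl, the receptor for adrenomedullin, was past 2-fold in BMD, at 668 (WT), 1419.7 (BMD) and 798 (DMD) CPM.

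The 5 fatty acid and solute transport genes had a median of -0.78 in BMD and 0.20 in DMD. In BMD 2 of 5 (Cavin2 and Lpl) were at least 2 times lower, but neither was on thinned nuclei, with -0.997 (-1.45 to -0.54) and -0.76 (-1.61 to -0.08), or with a minimum of 3 marker UMIs, with -0.84 and -0.64. The 5 VEGF and angiopoietin genes had medians of 0.09 and 0.16, with none past 2-fold. The 4 capillary genes had medians of 0.04 and 0.70, with 4 of 4 above WT in DMD (573 of all 1202 genes were), where the log2 ratio of the whole list's sum was 0.54 (interval 0.28 to 0.80). Of these 4, Meox2 was past 2-fold above (1.003) and Lpl below in BMD, and none was in DMD. Fabp5, the only gene of the fatty acid list that was higher in endocardium, stood at 250.4 (WT), 146 (BMD) and 288 (DMD) CPM against 85.7, 38.5 and 77.9. The arterial, venous, Notch, natriuretic peptide and haemostasis lists, with 2 or 3 genes each, and the single measured genes of the ErbB (Adam10, -0.79 and -0.60) and heat shock lists (Hsp90ab1, -0.58 and -0.01) had none past 2-fold over WT. Adam10, a protease that sheds membrane ligands, was 816 (WT), 473 (BMD) and 539 (DMD) CPM. No immediate early or cell division gene reached 100 UMIs. The first of these lists summed to 547, 448 and 750.1 CPM.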

How the data were processed

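Sorted nuclei of the apex, 1 library for each genotype, were sequenced with 10x Genomics chemistry. The authors counted unique molecular identifiers per gene and barcode with Cell Ranger against rn6, per the labels, and the deposited values are raw counts. The file headers name version 6.0.1 for the WT file and 4 for BMD and DMD; further filters are not given in the sources used here. The WT counts were read from an aggregate that holds all 3 libraries and in which BMD and DMD were thinned. Its BMD and DMD barcodes were recognised from the barcodes of those samples' own files, the remainder was taken as WT, and BMD and DMD were read from their own files. In the nuclei matched by barcode, no BMD or DMD count was higher in the aggregate, which kept 76.3% and 92.9% of their UMIs; whether WT was thinned was not tested. The barcodes with most UMIs were taken as nuclei, in the numbers the study gives for each library (24664 in all), and the shallowest held 513 (WT), 525 (BMD) and 546 (DMD) UMIs. Libraries shared 20 (BMD and WT), 12 (DMD and WT) and 12 (DMD and BMD) nuclear barcodes.

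Members were chosen by the marker rule, and their UMIs were summed per library and scaled to 1000000 (CPM). Genes needed at least 100 UMIs over the members, and past 2-fold was a rule of size without a test. Intervals were exact binomial for shares, exact Poisson for levels and exact conditional binomial for ratios (scipy 1.17.1, Python 3.11.15), at 95%. A count of 0 was set to 3 counts. Doublets were scored with Scrublet (scanpy 1.11.5), which marked 6, 2 and 11 members, and were kept. edgeR 4.0.16 supplied TMM factors only. Scripts were tested on simulated data. The named genes were the rule's genes, those furthest from other vascular endothelium or from WT by the interval end nearer 0, and the most abundant and 2-fold members of each list. Members and lists were chosen with earlier results of these data known. Pecam1, Cd36, Ackr1, Hspg2 and other listed genes with no row under their symbol were not analysed here, and some genes that the naming rule chose are not reported here.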

Additional observations from a re-analysis of the deposited data

Results flagged for a closer look

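Nuclei that met every criterion but the fibroblast limit were in no comparison above, and they made up 0.622% of WT nuclei (62), 0.837% of BMD nuclei (57) and 1.57% of DMD nuclei (124). The DMD share was 2.53 times that of WT (95% interval 1.85 to 3.48), whereas BMD had 1.35 times (0.922 to 1.96). Their median depth was 1934.5, 1727 and 1862 UMIs, against 909, 1263 and 1215 in the members, and Scrublet called 24.2%, 17.5% and 28.2% of them doublets, so whether they are single nuclei was not tested further.

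Col8a1 was higher than in WT in the endocardial nuclei of DMD (log2 ratio 1.59) and lower in the other vascular endothelial nuclei of the same library (-0.52). Xdh showed the same contrast, with 1.48 in endocardial and -0.26 in other vascular endothelial nuclei. With 1 library per genotype the difference between the classes was not tested.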

How the results depend on the processing

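No paired analysis was possible because each genotype has 1 library, and no library could be left out. The intervals cover counting error only, and the WT members, at 107837 UMIs, held the fewest and limit the ratios over WT. Both mutants had the larger share under every setting. Among nuclei with at least 1000 UMIs the WT share was 0.632% (39 nuclei) and the folds were 3.12 (BMD) and 3.28 (DMD). With the rule on nuclei thinned to 1000 UMIs (mean of 20 draws) the shares were 0.546% in WT and 1.58% in BMD, and the folds 2.90 and 3.38. A minimum of 3 marker UMIs gave 1.33%, 2.67% and 2.48% in WT, BMD and DMD, and one of 6 gave 0.652%, 1.32% and 1.13%. Without the fibroblast limit the shares were 1.64%, 2.85% and 3.41%. The thinned aggregate gave 1.59% in BMD, and 2 or more of the 4 genes gave 1.498% in BMD and 1.45% in DMD. Of endothelial nuclei the shares were 6.88%, 10.01% and 8.78%, with a DMD fold of 1.28.

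For counts of genes past 2-fold, the number of genes compared also differed between settings and is given in parentheses. With 3 marker UMIs, 25 genes were lower in BMD and 21 in DMD (of 1683 genes, against 1202). With 6, 20 were higher and 7 lower in BMD (of 670). The aggregate gave 19 higher in BMD and 8 lower in DMD (of 968), thinned members 18 higher in BMD and 8 lower in DMD (of 710), and 2 or more of the 4 genes 18 higher in BMD (of 859). At 50 UMIs a gene, 119 were higher and 74 lower in BMD, and 120 and 59 in DMD (2524 genes). At 200 UMIs the counts were 10 and 3 in BMD and 15 and 6 in DMD (449 genes). TMM scaling gave 9 lower in BMD and put the median of all genes at 0.21 in BMD and 0.05 in DMD, against 0.07 and -0.02 without it.

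The ratios of Fn1, Ccn2, Calcrl and Meox2 were not run under these settings. In the single genes that were run, values past 2-fold that changed sign were those of Mctp1, at -0.98 in DMD with 6 marker UMIs and -0.78 in BMD and -0.14 in DMD with 2 or more of the 4 genes, and, on thinned members, those of Zmat4 in BMD (0.86) and of Slfn4 in BMD over WT (-0.33) and in DMD over BMD (0.45). Single draws of the thinning differed, and for genes carried by few nuclei, such as Igf2, they differed in sign. The cause was not tested. Without thinning, a Npr3 UMI was found in 40.6%, 25.5% and 29.0% of members and a Nrg1 UMI in 38.6% of DMD members. Members chosen on thinned nuclei (for gene ratios) and those with 2 or more of the 4 genes were settings added after seeing the data, as was the mean over draws. Among the single named genes that were run, 884 values kept within the interval of the reported value, 100 lay outside it and 6, past 2-fold, changed sign. Of 690 values with a reported interval that excluded 0, 15 changed sign, these 6 and 9 under 2-fold. The 9 were Npr3 in BMD (0.01) and DMD (0.505) and Pawr in DMD (0.35) on thinned members, Npr3 in DMD (0.08) with at least 1000 UMIs, Cdh11 in BMD (0.05 to 0.11 under 3 settings), Zeb2 in BMD (0.02) without called doublets, and Ryr2 in DMD with free RNA subtracted. In the last setting no UMI of Ryr2 or Dmd was left in WT, so their ratios over WT rest on the floor of 3 counts and are not given; for DMD over BMD they were -2.02 for Ryr2 and 0.08 for Dmd.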
